A study of Drosophila melanogaster with 4 samples.

Results

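Isolated Pol II regions are stretches of chromatin enriched for RNA polymerase II (Pol II) that stand far from every other enriched stretch. They were chosen by position, width and overlap between replicates, all measured in these data, from the list of regions that the authors deposited for the replicate set. A region was kept when it lay on 2L, 2R, 3L, 3R, 4 or X and was under 10 kb wide. It also had to lie at least 20 kb from the nearest enriched region on both sides and to overlap a region of each single replicate. Of 8273 enriched regions, 297 met the rule, which is 3.59% of the list and 2.75% of its bases. They were compared with the 4740 other regions under 10 kb that were found in both replicates, called other regions here. In both groups the first and last region of an arm was left out.

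The study mapped Pol II binding with ChIP-seq, in which chromatin bound by an antibody is recovered and sequenced. It had 1 group: larval nuclei of instar 3 from the Drosophila melanogaster strain Oregon-R, wild type in genotype. It held 2 ChIP replicates made with an antibody that the labels call RNA Pol II from abcam, and 2 input libraries of chromatin without immunoprecipitation. The form of Pol II that the antibody recognises is not given in the sources used here. Each region carried 1 score, a log2 ratio read here as ChIP over input reads, and a fold below is 2 to the power of that score. The enriched regions held at least 5.06 M ChIP reads in replicate 1 and at least 4.70 M in replicate 2, as recovered from the scores in lowest terms. How deeply the libraries were sequenced in all is unknown.

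Pol II transcribes all protein-coding genes. In Drosophila it is known to pile up just downstream of many start sites, where it pauses before it is released into the gene, and to be spread more thinly along genes that are being transcribed. Active genes in the fly genome tend to lie next to each other and to alternate with long stretches that are silent in a given tissue. Larvae of the last instar hold many tissues, among them imaginal discs, brain, gut and fat body. In such a mixture, strong binding in few cells and weak binding in many cells cannot be told apart. Gene positions on release 5 of the genome, which the files use, were not used here, so the regions are named by arm and position. Sequence of that release was not used either.

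The rule used position, width and presence in both replicates, and did not use the score directly. Presence in both replicates still acts on the score, since regions that failed this step tended to be weak. Their median replicate set score was 0.29 if isolated and 0.35 if not. Of regions under 10 kb, the step kept 74.8% of those that met the gap limit and 65.5% of those that did not. Its part in the score comparisons below was not tested. The values below are descriptions of a single group with 2 replicates. An exact sign-flip test over 2 samples cannot give a two-sided p below 0.5, and no test was made. Differences are set beside the SD between the replicates instead. Regions are not replicates of a condition, and counting intervals cover counting error only.

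The gap to the nearer neighbour, called the smaller gap here, ran from 20.0 to 189 kb in isolated regions, with a median of 29.8 kb and an upper quartile of 41.6 kb. Other regions had a median smaller gap of 1.35 kb, and 42.0% of them lay within 1 kb of a neighbour. For 57 isolated regions the gap was at least 50 kb on both sides, and for 10 it was at least 100 kb. Together with its flanking gaps, the median isolated region sat in a stretch of 96.6 kb that held no other enriched region of the list. Most isolated regions were also alone in the single replicates: 278 of the 297 kept a gap of 20 kb in replicate 1 and 293 kept it in replicate 2, with 274 alone in both. The set was made from the same libraries, and the replicate lists hold fewer enriched regions, 7517 and 6487 against 8273. These counts therefore follow in large part from the choice. Regions of a single replicate that broke into these gaps numbered 20 in replicate 1, with a median score of 0.54 and a highest of 1.19, and 4 in replicate 2, with a median of 0.28 and a highest of 0.52.

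Isolated regions were not spread singly along the arms in every case. Next to another isolated region lay 108 of them, in 48 runs of neighbours, the longest of 4, while 189 had no isolated neighbour. Of 580 distinct flanking regions 108 were isolated, where 3.59% of the whole list was. A region that flanks an isolated one already meets the gap limit on that side. Such runs therefore follow in part from the rule. The 472 flanking regions that were not isolated had a median width of 2122 bp, and 19 of them were 10 kb or wider. Of these neighbours, 317 or 67.2% were found in both replicates, near the 65.5% of all 7242 regions under 10 kb that were not isolated. That background leaves out regions of 10 kb or wider.

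An isolated position did not go with poor recovery in the replicates. Of the 397 regions that met the limits of width and gap, 297 overlapped a region of each replicate, 74.8% (95% Wilson interval 70.3 to 78.8). Among the 7242 regions under 10 kb that were not isolated, 65.5% did (64.3 to 66.5). The 100 isolated regions left out by this step were found in replicate 1 alone (27), replicate 2 alone (22) or neither (51). Many of them were weak or narrow. Their median score in the replicate set was 0.29, 87 scored under 0.5, and 33 were narrower than 1301 bp, the narrowest width in either replicate list. The 2 of them that scored at least 2 were at most 1169 bp wide. Regions that were not isolated and failed this step, 2502 in all, were weak and narrow too. Their median score was 0.35 and their median width 1470 bp, against 1553 bp for the 100. How many of the 2502 fell under the same limits of score and width was not counted.

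Most isolated regions had nearly the same width. In the replicate set their median width was 2155 bp, with quartiles of 2009 and 2429 bp, against 2838 bp with quartiles of 2165 and 4442 bp for other regions. Of the isolated regions, 162 (54.5%) were at least 2 kb and under 2.5 kb wide, against 1596 (33.7%) of the other regions. Only 25 isolated regions (8.42%) were 5 kb or wider, against 956 other regions (20.2%). The replicate lists showed the same order with smaller steps. In replicate 1 the median width was 2096 bp for isolated and 2442 bp for other regions. In replicate 2 it was 2118 bp for isolated and 2328 bp for other regions. Width under 10 kb is part of the rule, so these widths are in part fixed by the choice. A region joined from close pieces can still be isolated. More than 1 region of replicate 1 overlapped 3 of the 297 isolated and 377 of the 4740 other regions. In replicate 2 these counts were 5 and 356. The part of such joining in the widths was not tested.

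The quartiles of the score lay further apart in isolated than in other regions, on both sides. The highest scores belonged to other regions, at 4.34 in replicate 1 and 4.75 in replicate 2. Isolated regions reached 3.27 and 3.47. In replicate 1 isolated regions had a median score of 0.84 (1.79-fold) with quartiles of 0.44 and 1.60, against 0.96 (1.95-fold) with quartiles of 0.62 and 1.47 for other regions. In replicate 2 the isolated median was 1.14 (2.20-fold) with quartiles of 0.51 and 1.95, against 1.15 (2.21-fold) with quartiles of 0.68 and 1.75 for other regions. The interquartile range was larger in isolated regions by 0.34 ± 0.04 (SD, n = 2). The lower quartile differed by −0.17 ± 0.01 and the upper quartile by 0.16 ± 0.05 (SD, n = 2 each, isolated minus other). The medians differed by −0.07 ± 0.08 (SD, n = 2), which is within the spread between replicates. Median input reads per kb, in lowest terms, were 90.9 in isolated and 98.2 in other regions in replicate 1. In replicate 2 they were 95 in isolated and 107 in other regions. Their part in the scores was not tested.

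**Figure D1:**
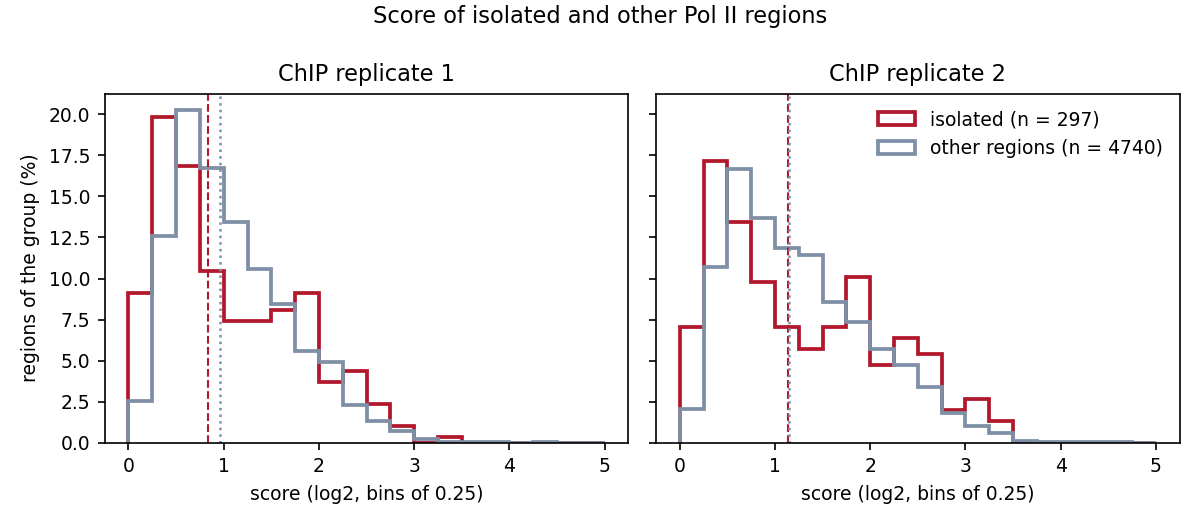
Distribution of the score (log2, x axis, bins of 0.25) among the 297 isolated regions (red) and the 4740 other regions (grey), as percent of each group, in ChIP replicate 1 (left) and replicate 2 (right); vertical lines are medians. Isolated regions hold more of the lowest scores and show a second rise between 1.75 and 2 in both replicates.

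In steps of 0.25, the scores of isolated regions had their highest count between 0.25 and 0.5, with 59 regions in replicate 1 and 51 in replicate 2. The counts then dropped to 22 between 1.25 and 1.5 in replicate 1 and to 17 there in replicate 2. Between 1.75 and 2 they reached 27 in replicate 1 and 30 in replicate 2. Other regions had a single maximum between 0.5 and 0.75, at 960 and 790 regions, and became rarer with each step from there up to a score of 3.25 in both replicates. Whether the second rise is more than counting noise was not tested.

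Strong isolated regions were those with a score of at least 2, a fold of 4. In the replicate set 52 isolated regions (17.5%) reached it, where 11.5% of all 5037 regions compared did. In replicate 1 it was 35 of the isolated regions (11.8%), with a background of 9.85%, and in replicate 2 it was 67 (22.6%), with a background of 17.9%. A score of at least 2 in both replicates was reached by 34 isolated regions (11.4%), with a background of 9.59%. All 4 shares lay above their background, those of replicate 1 and of both replicates only slightly. The strong isolated regions had a median width of 2264 bp, against 2519 bp for the 525 strong other regions, and 40 of the 52 were under 3 kb wide. The narrowest was 2163 bp wide, above the median of 2155 bp over all isolated regions. Among the strong other regions the narrowest was 2139 bp wide, so neither group held a strong region under 2 kb.

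Weak isolated regions had a score under 0.5, a fold under 1.41. In the replicate set there were 85 (28.6%), with a background of 20.3%. In replicate 1 there were 86 (29.0%), with a background of 15.9%, and in replicate 2 there were 72 (24.2%), with a background of 13.4%. Weak in both replicates were 60 isolated regions (20.2%), with a background of 9.05%. The 85 weak isolated regions of the replicate set had a median width of 1967 bp, and 62 of them (72.9%) were under 2 kb wide. The 940 weak other regions had a median of 2015 bp, and 42.3% were under 2 kb. The 95% counting interval of the score lay above 0 in both replicates for 219 isolated regions (73.7%), with a background of 85.1%. In replicate 1 alone it did so for 243 (81.8%), with a background of 90.7%, and in replicate 2 alone for 248 (83.5%), with a background of 91.4%. Counts are known only in lowest terms, so these intervals are at their widest.

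Width and score were tied more closely in isolated regions than in other regions. Across the 297 isolated regions Spearman's rho between width and score was 0.75 in the replicate set, 0.81 in replicate 1 and 0.83 in replicate 2. Across the 4740 other regions it was 0.36, 0.53 and 0.56. These values describe regions that share libraries and a calling method. A width limit and the merging of neighbours act on the groups unequally, and their part was not tested.

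Within a class of width, isolated regions of 2 kb or more scored higher than other regions. Between 2 and 3 kb, where 178 isolated and 2133 other regions lay, the median was 1.06 against 0.90 in replicate 1 and 1.36 against 1.10 in replicate 2. The difference was 0.21 ± 0.07 (SD, n = 2). Between 3 and 5 kb (31 isolated, 1252 other) it was 0.44 ± 0.11, and between 5 and 10 kb (25 isolated, 956 other) it was 0.40 ± 0.06 (SD, n = 2 each). Under 2 kb the order turned, with a difference of −0.06 ± 0.02 (SD, n = 2) between 63 isolated and 399 other regions. The equal-weight mean over the 4 classes was 0.25 ± 0.05 (SD, n = 2), while the pooled difference of −0.07 had the opposite sign. Of the isolated regions 21.2% were under 2 kb wide, against 8.42% of the other regions. Width comes from the same reads as the score, so neither value is free of the other.

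**Figure D2:**
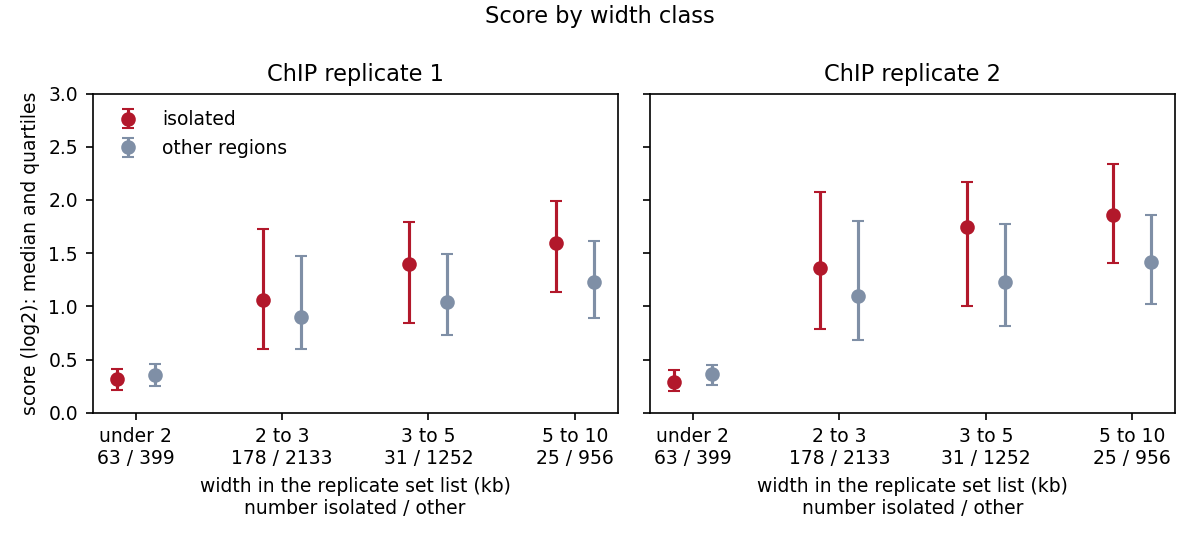
Median score (log2, y axis) with quartiles as bars, by width class in the replicate set list (x axis, kb), for isolated regions (red, left in each pair) and other regions (grey) in each ChIP replicate; the numbers under the axis are isolated and other regions in the class. From 2 kb upward the isolated medians lie above the others in both replicates, and under 2 kb they lie slightly below.

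The score had almost no rank correlation with the degree of isolation. Across the 297 regions Spearman's rho between the smaller gap and the score was −0.04 in each replicate. The 151 regions with a smaller gap of 20 to 30 kb had median scores of 0.83 in replicate 1 and 1.14 in replicate 2. The 89 regions with 30 to 50 kb had 0.86 in replicate 1 and 1.25 in replicate 2. The 57 regions with 50 kb or more had 0.72 in replicate 1 and 0.93 in replicate 2. In the replicate set, scores of at least 2 made up 16.6%, 19.1% and 17.5% of these 3 classes, with a background of 11.5%.

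The highest isolated score belonged to a region of 5.90 kb on 3L, from 8667762 to 8673660, whose nearest neighbours lay 29.8 and 38.4 kb away. It stood at 9.66-fold in replicate 1 (95% counting interval 8.87 to 10.5) and 11.1-fold in replicate 2 (10.2 to 12.0), with at least 5927 and 6172 ChIP reads. It ranked 18 of 7517 in replicate 1 and 21 of 6487 in replicate 2. The strongest isolated region thus lay among the strongest regions of the whole lists.

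Next came 2 further regions of 3L. The one from 21374532 to 21376810 was only 2.28 kb wide and stood at 7.23-fold in replicate 1 (5.54 to 9.45) and 10.4-fold in replicate 2 (9.20 to 11.8). The one from 11244324 to 11251674 was 7.35 kb wide and stood at 7.33-fold in replicate 1 (6.81 to 7.89) and 10.9-fold in replicate 2 (10.2 to 11.8). These regions had nearly equal folds over very unequal widths.

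On 3R, a region of 2.93 kb from 16077430 to 16080362 stood at 6.75-fold (replicate 1) and 9.04-fold (replicate 2). A region of 2.43 kb from 22623700 to 22626128 stood at 6.25-fold (replicate 1) and 9.42-fold (replicate 2). A region of 2.25 kb from 5699334 to 5701586, with gaps of 63.3 and 52.0 kb, stood at 5.84-fold (replicate 1) and 8.92-fold (replicate 2). For the last of these the interval in replicate 2 was the widest of the 10 highest, at 5.72 to 13.9, with a lower limit of 163 ChIP reads.

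The strongest isolated region of 2L ran from 13546774 to 13551290 and stood at 5.91-fold (replicate 1) and 8.63-fold (replicate 2). On 3L, a region from 14266396 to 14268618 stood at 5.76-fold (replicate 1) and 8.39-fold (replicate 2). The strongest of 2R, from 12617738 to 12619948, stood at 5.63-fold (replicate 1) and 8.19-fold (replicate 2). The last of the 10 was on 3L from 11001090 to 11003358, with gaps of 108 and 43.3 kb, at 5.75-fold (replicate 1) and 7.41-fold (replicate 2). Of the 10 regions, 5 lay on 3L, 3 on 3R and none on the X, and 7 were under 3 kb wide. They ranked no lower than 12 of the 297 in replicate 1 and 15 of the 297 in replicate 2. Since the set was made from the same libraries, these ranks follow in part from the choice. The strongest isolated region of the X, from 4098964 to 4101152, was 2.19 kb wide with gaps of 72.1 and 111 kb. It stood at 4.87-fold in replicate 1 (4.22 to 5.61) and 7.46-fold in replicate 2 (6.08 to 9.15).

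**Figure D3:**
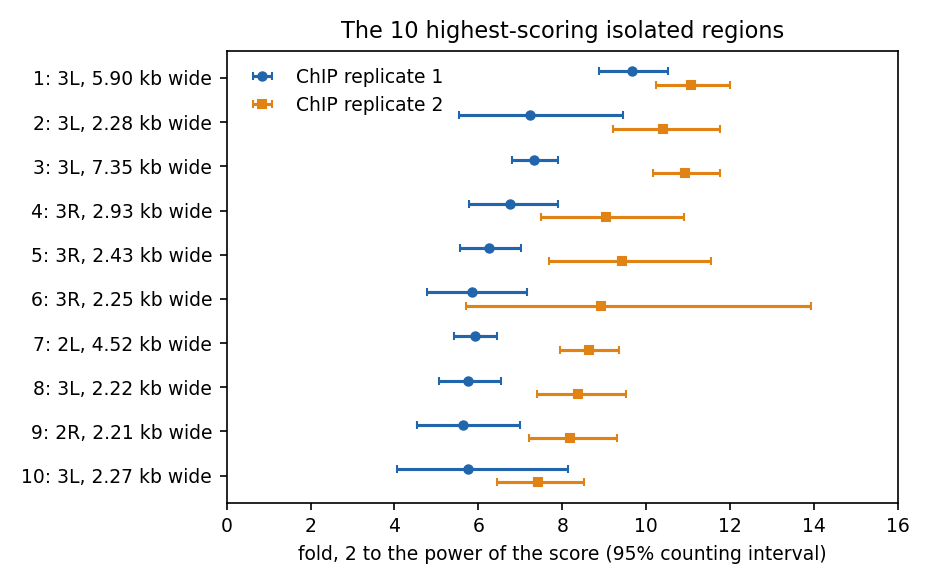
Fold (2 to the power of the score, x axis) of the 10 isolated regions with the highest replicate set score, in ChIP replicate 1 (blue circles) and replicate 2 (orange squares), with 95% counting intervals. The regions lie between 5.63 and 9.66 in replicate 1 and between 7.41 and 11.1 in replicate 2; the lists carry different scaling constants, and no difference in level is read from the offset between replicates.

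The lowest isolated scores were at the limit of what the lists call enriched. The 5 lowest lay on 2R, 3L and 3R, were 1833 to 1923 bp wide, and had replicate set folds of 1.00 to 1.04. The lowest, on 2R from 1405698 to 1407620, stood at 1.18-fold in replicate 1 (0.95 to 1.47) and 1.22-fold in replicate 2 (0.93 to 1.59). That region lay in the 2 Mb of 2R nearest the centromere. One on 3L, from 15917024 to 15918870, stood at 1.11-fold in replicate 1 (0.79 to 1.55) and 1.13-fold in replicate 2 (0.95 to 1.34). Among the 5, the sole interval above 1 was that of 3R, 22506778 to 22508610, in replicate 2, at 1.31-fold (1.04 to 1.66). The remaining 2 began at 16029614 on 3R and at 22027192 on 3L and stood at 1.00-fold and 1.04-fold in replicate 2.

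The 5 widest isolated regions differed much in strength. The widest, 7.87 kb on 3R from 1681148 to 1689016, stood at 1.77-fold (replicate 1) and 2.36-fold (replicate 2). It lay in the 2 Mb of 3R nearest the centromere. In replicate 2 it was split into 2 regions, and the fold is that of the stronger one, 3247 bp wide. Another on 3R, from 15994202 to 16001782, stood at 1.85-fold (replicate 1) and 1.74-fold (replicate 2), where the strongest single regions inside it were 2964 and 3426 bp wide. On the X, the 7.66 kb region from 9443846 to 9451502 reached 4.64-fold in replicate 1 (4.29 to 5.02) and 5.89-fold in replicate 2, where the interval of 2.87 to 12.1 rests on a ratio that reduces to 44 ChIP and 9 input reads in lowest terms and is at its widest. The 2R region from 10457018 to 10464334, 7.32 kb wide, had a fold of 3.17 in replicate 1 and of 3.72 in replicate 2. The fifth was the 3L region from 11244324 given above. On the 6 arms 350 regions were 10 kb or wider, and 4 of these met the gap limit.

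The most remote region of all lay on 3L from 24224174 to 24225832, in the 2 Mb of that arm nearest the centromere. This region had 193 and 189 kb free of regions on its sides. It was weak, at 1.38-fold in replicate 1 (0.96 to 1.98) and 1.43-fold in replicate 2 (1.14 to 1.79). The second most remote, on 3L from 13658866 to 13660830, stood at 1.41-fold (replicate 1) and 1.44-fold (replicate 2), and the 2L region from 16049046 to 16050954 at 1.29-fold (replicate 1) and 1.05-fold (replicate 2). Not all remote regions were weak. The 2R region from 19090338 to 19092506, with gaps of 116 and 122 kb, stood at 3.23-fold in replicate 1 (2.79 to 3.74) and 5.01-fold in replicate 2 (4.06 to 6.18). The 2L region from 17259638 to 17261728, with gaps of 128 and 121 kb, stood at 1.99-fold (replicate 1) and 2.43-fold (replicate 2).

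At the gap limit itself, the 3 regions just inside had smaller gaps of 20009, 20025 and 20069 bp. They stood at 4.63-fold, 6.25-fold and 3.45-fold in replicate 1 and at 6.03-fold, 9.42-fold and 5.49-fold in replicate 2. The 3 just outside had smaller gaps of 19991, 19911 and 19829 bp. They stood at 3.13-fold, 1.64-fold and 1.33-fold in replicate 1 and at 3.91-fold, 1.24-fold and 1.48-fold in replicate 2. With 3 regions on each side these values show no more than where the limit falls.

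Isolated regions lay on all 5 large arms. Of the 297, 70 were on 2L, 43 on 2R, 63 on 3L, 69 on 3R and 52 on the X. The share on 2L was 23.6% (95% Wilson interval 19.1 to 28.7) against 17.5% (16.4 to 18.6) of other regions. The share on 2R was 14.5% (10.9 to 18.9) against 21.5% (20.4 to 22.7). On 3L, 3R and the X the shares of the groups differed by 0.17 to 1.30 percentage points, with 17.5% of isolated and 16.7% of other regions on the X. Per Mb, 2L had 3.04 isolated and 36.0 other regions and 2R had 2.03 isolated and 48.2 other regions. The X had 2.32 isolated and 35.2 other regions per Mb. Positions are what the rule used, and neighbouring regions are not independent, so the intervals are no test.

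**Figure D4:**
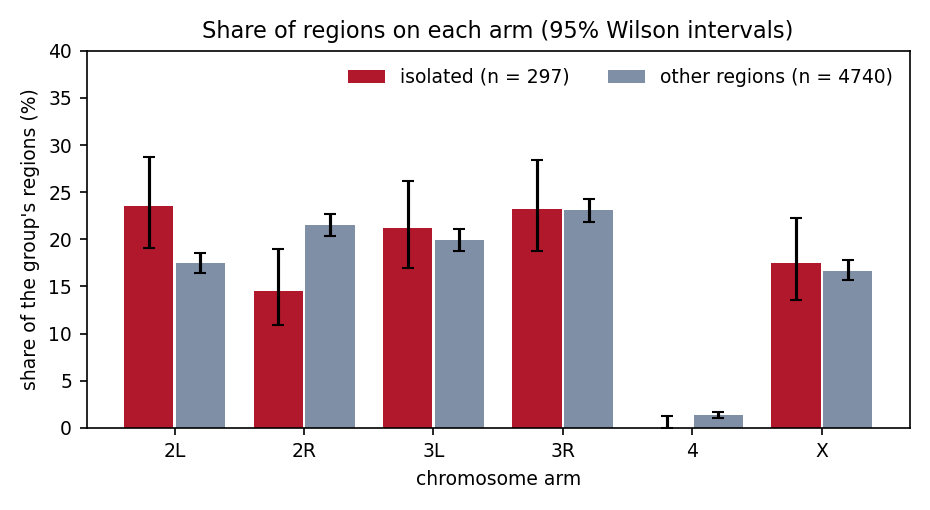
Share of the regions of each group (y axis, percent) on the 6 main arms (x axis), for 297 isolated regions (red, left bar) and 4740 other regions (grey), with 95% Wilson intervals. The isolated share is higher on 2L, lower on 2R and 0 on chromosome 4.

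Chromosome 4, a small chromosome rich in heterochromatin, had no isolated region. Of its regions under 10 kb found in both replicates, 0 of 64 were isolated, which allows a share of up to 4.69%. The Wilson interval for that share reaches 5.66%, and both limits cover counting error only. Another 2 of its regions met the gap limit, the farther at 22.0 kb, and neither was found in both replicates.

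The strength of isolated regions varied between the arms. On 2R their median score was 1.13 against 0.99 for other regions in replicate 1, and 1.47 against 1.16 in replicate 2. On 3R it was 0.68 against 0.94 in replicate 1, and 0.72 against 1.12 in replicate 2. On 3L it was 0.98 against 0.97 in replicate 1, and 1.44 against 1.16 in replicate 2. On the X isolated regions were the lower group in both replicates, at 0.88 against 1.03 and 1.07 against 1.19. On 2L the order of the groups differed between the replicates, at 0.90 against 0.94 in replicate 1 and 1.26 against 1.11 in replicate 2. The arms 2R and 3R therefore went opposite ways in both replicates. On 3R, 36.2% of 69 isolated regions scored under 0.5 in replicate 1 and 33.3% in replicate 2, the highest isolated shares of the 5 arms. Among other regions of 3R these shares were 16.1% in replicate 1 and 15.4% in replicate 2. On 3L, 19.0% of 63 isolated regions scored at least 2 in replicate 1 and 31.7% in replicate 2, against 8.58% and 17.1% of its other regions. The same arm had many weak isolated regions, with 20 of 63 under 0.5 in replicate 1 and 18 in replicate 2, against 151 and 125 of its 944 other regions. These arms were picked out after their values were seen, and the difference between arms was not tested.

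Toward the centromeres isolated regions took a larger share. The centromeric 2 Mb of the 5 large arms held 28 of the 297 isolated regions, 9.43% (95% Wilson interval 6.60 to 13.3), against 237 of 4676 other regions, 5.07% (4.48 to 5.73). By arm the isolated share was higher on 2L (7.14% against 5.79%), 2R (14.0% against 4.51%), 3L (7.94% against 1.91%) and the X (13.5% against 4.56%). On 3R it was lower, at 7.25% against 8.14%. These shares rest on 5 to 7 isolated regions an arm. As for the arms, the rule used positions and neighbouring regions are not independent, so the intervals are no test. The centromeric isolated regions had a median replicate set score of 0.78, and the remaining isolated regions had 0.94. Other regions differed in the same direction, at 0.89 in the centromeric 2 Mb and 0.97 elsewhere on these arms.

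The replicates placed isolated regions at nearly the same positions. Matched to a single region in each replicate were 291 of the 297 (98.0%), against 4146 of the 4740 other regions (87.5%). The middles of the matched regions lay a median of 23 bp apart in isolated and 71 bp apart in other regions, and within 100 bp in 78.0% of isolated and 57.0% of other regions. Between the replicates, the widths of isolated regions correlated with a Spearman's rho of 0.90, and those of other regions with 0.76, across matched regions. Overlap with both replicates and gaps of at least 20 kb are part of the rule, so these values follow in part from the choice. Pieces joined in 1 list can be separate in another, which was seen in isolated regions too. More than 1 region of replicate 1 overlapped 3 isolated and 377 other regions, and in replicate 2 it was 5 and 356. The part of such merging was not tested.

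The scores of the replicates followed each other in isolated regions as in the others. Across the 291 matched isolated regions Pearson's r was 0.95 and Spearman's rho 0.92, and across the 4146 matched other regions they were 0.94 and 0.92. The difference, replicate 2 minus replicate 1, had an SD of 0.29 in isolated and 0.26 in other regions on the log2 scale, with a median counting error of the isolated scores of 0.13 in each replicate. The isolated region with the largest difference, chosen after its values were seen, lay on 2R from 15613462 to 15615808. It stood at 3.30-fold in replicate 1 (2.92 to 3.72) and 9.64-fold in replicate 2 (8.12 to 11.4), with at least 1162 and 1177 ChIP reads, against at least 333 and 147 input reads. That single region ranked 66 among the isolated regions in replicate 1 and 4 in replicate 2.

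**Figure D5:**
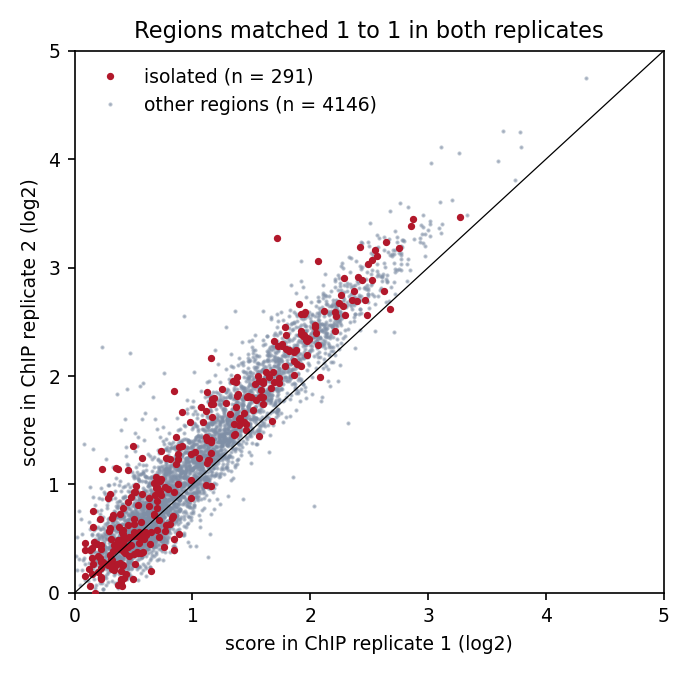
Score in ChIP replicate 2 (log2, y axis) against replicate 1 (log2, x axis) for regions matched 1 to 1, with 291 isolated regions (red) over 4146 other regions (grey) and the line of equal scores. Isolated regions lie in the same band as the others, and 1 of them stands apart at 1.72 in replicate 1 and 3.27 in replicate 2.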

How the data were processed

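Pol II ChIP-seq regions from 2 ChIP replicates and their set were analysed; the 2 input libraries have no region list here. Chromatin was fixed with formaldehyde and sonicated, per the labels' protocols. The input numbered 2 belongs to ChIP replicate 1 and the input numbered 1 to ChIP replicate 2, per the labels. Bowtie 0.12.7 is named in the submitters' processing notes. Coordinates are on FlyBase release 5, per the file headers. How regions were called and filtered, and how the replicates were combined, is not given in the sources used here. Each region was deposited by the authors with 1 log2 score. The base is not stated: 2 to the power of the score was a quotient of whole numbers times a constant in all 7524, 6489 and 8320 scores (its log2 was −0.08, 0.27 and 0.09 in replicate 1, replicate 2 and the set; relative tolerance 1e-11, denominators up to 20000). The numbers are read as ChIP and input reads. A ratio keeps only lowest terms, so each is a lower limit, and read intervals (95%, normal on the log scale) are upper bounds on counting error. Without molecular identifiers, reads of 1 PCR product may count more than once.

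Score levels of the groups were compared only within a list; between replicates scores were correlated and their differences described, and no change in level is read from them. A region took the score of the strongest overlapping region of each replicate (at least 1 bp; counts equal to those of bedtools 2.31.1), and its gap is the number of bases to the nearest enriched region. On 3000 simulated regions, 100% of 160 isolated ones and 100% of the ratios were recovered. The simulated replicates kept the edges of the set with some regions dropped, and a recurring ratio was planted. This checks the code only, since shifted, split or merged regions were not simulated. The software was Python 3.11.15 (scipy 1.17.1, pandas 2.3.3, numpy 2.4.6, matplotlib 3.10.9). Separate collections of larvae are not stated for the replicates, so their spread may be technical. Named regions were the 10 highest and 5 lowest scores, the 5 widest, the 5 with the largest smaller gap, the highest of each arm, and 3 on each side of the gap limit. The regions, lists and this rule were chosen with earlier results of these data known. The alternatives tried were other limits of gap and width, other overlap, the stronger part of the list, and each replicate alone. Also tried were gaps kept in every list, gaps to depleted regions too, and leaving out chromosome 4 and the centromeric 2 Mb. Scores were also compared within width classes and for regions matched 1 to 1, and widths were taken from the replicate lists. Positions relative to genes and sequence content were not analysed here.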

Additional observations from a re-analysis of the deposited data

Results flagged for a closer look

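Besides enriched regions, the replicate set list holds 47 regions listed as depleted, which entered no comparison above. Of these, 6 lay within 20 kb of an isolated region. How many would lie there by position alone was not worked out. Each lay near a different isolated region, 4.75 to 16.6 kb away, and was 1683 to 1865 bp wide. Their scores were close to 0, from −0.06 to −0.0019, against 0.10 to 2.85 for the isolated regions beside them. The nearest, on 3R from 5692904 to 5694586, lay 4.75 kb from the isolated region that begins at 5699334. With gaps measured to depleted regions too, 291 isolated regions were left.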

How the results depend on the processing

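The number of isolated regions was 651 with a gap of 10 kb, 84 with 40 kb and 186 in the higher-scoring 50% of the list, which follows from those limits, and 319 to 324 with 1 replicate left out. The median score difference, −0.07 as reported, turned to 0.28 in the higher-scoring 50% and to 0.25 within width classes, and was −0.0923 to −0.038 with 1 replicate left out; the cause was not tested. The median width difference, −683 bp as reported, was −784 with a gap of 10 kb, −857 with no upper limit on width, −490 with 50% reciprocal overlap, −1014 in the higher-scoring 50%, −278 with widths from the replicate lists, and −566 to −372 with 1 replicate left out. It was below 0 under all 11 alternatives tried for it. The X share difference, 0.84 points as reported, was 0.304 to 1.30 with 1 replicate left out and stayed inside its 95% interval under all 10 alternatives. The interquartile range of the score was larger in isolated regions, and the share on 2R smaller, under all 10 alternatives tried for each. The lower quartile of the score, lower in isolated regions under 9 alternatives, differed by 0.08 in the higher-scoring 50%, where the weak regions are left out by construction. Of 113 alternative values, 90 stayed within the replicate SD, the 95% interval or 1.5 times the count, and 23 did not. No paired analysis was possible because the 2 ChIP replicates form a single group. What depth limits is not known for single regions, since counts are known only in lowest terms.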

Other observations

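The rule keeps to the 6 main arms, but the unplaced sequence U and the heterochromatic (Het) scaffolds also hold regions that stand apart. Of 257 regions under 10 kb there, 81 met the gap limit, and 23 of these were found in both replicates (28.4%), 18 on U and 5 on Het scaffolds. The 23 had a median score of 1.73 in replicate 1 and 1.67 in replicate 2 and a median width of 2755 bp. Gaps on short scaffolds cannot be long, and neighbours on U need not be neighbours on a chromosome.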
